A study of Mus musculus with 6 samples.

Results

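The coagulation and fibrinolysis genes of vessels comprised F3, Tfpi, Thbd, Procr, Vwf, Plau, Plaur and Plat, chosen by name as RNAs whose proteins start, restrain or dissolve clots at the vessel wall. Earlier results of these data were known when they were chosen. They are 8 of the 23473 rows of the expression table that carry RefSeq gene names. All 8 were among the 12320 rows with a mean of at least 1 RPKM over the 6 libraries, the rows that were tested. RPKM is a read number scaled to gene model length and library total, so levels can be set beside each other between genes and libraries. It does not correct for differences in RNA makeup between libraries, and other scalings were run as alternatives.

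The libraries are bulk RNA-seq of tumor-associated endothelial cells (TECs), captured on magnetic beads against CD31 from subcutaneous Lewis lung carcinoma (LLC) tumors in male C57BL/6 mice labelled as 8 weeks old. The comparison asked how activating Notch in the endothelium changes TEC RNA. NICeCA mice carried Cdh5 cre ERT2 and a Rosa26 flox-stop-flox Notch1 ICD allele, so that tamoxifen, given before the tumor cells, switched on the Notch1 intracellular domain in cells that express Cdh5. Control (Ctrl) mice are labelled wild type, and whether they carried the Cre or received tamoxifen is not given in the labels. Each group has 3 libraries, and by the methods each is 1 mouse. The paper gives a single day of dissection for these TECs, whereas the labels speak of different days and give none per library. The tumor cells were grafted and carry neither allele, and recombination depends on Cdh5, so other cells caught on the beads are not targeted unless they express it.

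Clotting begins when tissue factor, encoded by F3, meets factor VIIa, and tissue factor pathway inhibitor, encoded by Tfpi, shuts this complex down. On resting endothelium thrombin is bound by thrombomodulin (Thbd), which turns it toward activating protein C, a step that the endothelial protein C receptor (Procr) accelerates. Von Willebrand factor (Vwf) is stored by endothelial cells and tethers platelets. Clots are dissolved by plasmin, which urokinase (Plau, bound by its receptor Plaur) and tissue-type plasminogen activator (Plat) cut from plasminogen.

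Recovered from the RPKM values, the reads on RefSeq rows numbered 29818454 to 30769916 in Ctrl libraries and 27793301 to 29194187 in NICeCA libraries. The genes described here drew between 403 reads (F3, Ctrl replicate 1) and 12734 reads (Plaur, a NICeCA library) at the extremes. The labels describe the bead fractions as TECs of high purity, and they also held RNA of other cells. Lyz2, a macrophage gene, lay between 2611 and 5555 RPKM in the 6 libraries, whereas Pecam1, which encodes CD31, lay between 47.5 and 154 RPKM. Summed over 22 endothelial markers, the level was 386 to 953 RPKM in Ctrl and 838 to 1050 RPKM in NICeCA libraries, with Ctrl replicate 1 inside the NICeCA range. Notch1 itself did not pass the test (log2 fold change 0.11, limma adjusted p = 0.713), and the Notch target Hey1 was higher in NICeCA libraries (1.10, limma adjusted p = 0.0412). Both were named after their values were seen, and other Notch targets are not reported here.

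Among these genes 4 of 8 passed the test as higher in NICeCA libraries (limma, adjusted over all 12320 rows, threshold 0.05), namely Thbd, Vwf, Plaur and Procr, and 0 were lower. Of all tested genes 5.88% were called higher and 7.68% lower (13.6% in either direction), and the 725 higher and 946 lower calls became 1002 and 684 when libraries were rescaled by a trimmed mean of log ratios. At an unadjusted p under 0.05 by limma 6 of the 8 were higher, with F3 and Plau added, and 0 lower. Over all 12320 tested genes, 1775 were higher and 2602 lower at that threshold. The median log2 fold change of the 8 genes was 0.71, against -0.05 over all tested genes, with 7 of 8 positive. The 22 endothelial markers had a median log2 fold change of 0.66, with 22 of 22 positive and 2 called higher. The exception in sign, Tfpi, turned positive with that rescaling and with quantile normalization. In 5 of 8 genes every NICeCA library lay above every Ctrl library, a pattern that 16.5% of all tested genes showed, with 24.4% in the reverse order and 40.9% apart in either direction. With the mean of the 22 endothelial markers as a covariate, limma called 0 of the 8 genes and 0 genes in all. At an unadjusted p under 0.05 in that fit 6 of the 8 were higher. Of all tested genes 1230 were higher and 1051 lower there. Without NICeCA replicate 1 or NICeCA replicate 2 limma likewise called 0 of the 8, and without NICeCA replicate 3 it called 2. At an unadjusted p under 0.05, 5 of the 8 were higher without NICeCA replicate 1 or 2. Of all tested genes 1257 and 1167 were higher in these 2 fits at that threshold. In bulk samples, more cells of a type and more RNA per cell cannot be told apart.

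**Figure D1:**
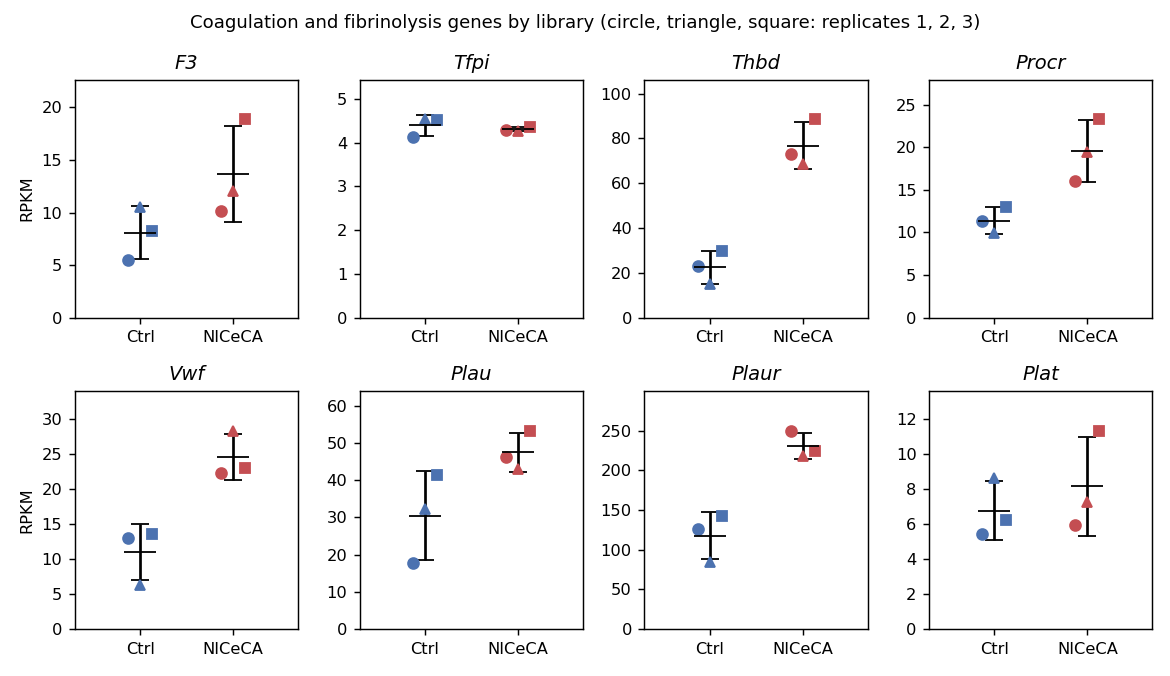
RPKM (linear axes from 0) of the 8 genes in 3 Ctrl (blue) and 3 NICeCA (red) libraries, where a circle, triangle and square are replicates 1, 2 and 3 and bars are the mean ± SD. Thbd, Procr, Vwf, Plau and Plaur had no overlap between groups, F3 and Plat overlapped, and Tfpi stayed between 4.12 and 4.53 RPKM.

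RefSeq promoter windows (GRCm38.p6) were matched for F3, Procr, Plaur and Tfpi, 4 of the 8 genes, and Vwf, Thbd, Plau and Plat are named only. The 250 bases before the start of each transcript are shown for the 4 genes with a window. Of these, Procr and Plaur passed the test as higher, and F3 and Tfpi did not pass. Thbd, with the largest fold change of the 8, had no window. Capitals mark matches on either strand to TGANTCA (an AP-1 site), CCACCC (a KLF-like site), TGGGAA (the core of the site of RBPJ, the DNA-binding partner of the Notch intracellular domain) or GGGNNTTCC (an NF-kB-like site), and no matches overlapped.
F3, chr3:121723287-121723536, plus strand: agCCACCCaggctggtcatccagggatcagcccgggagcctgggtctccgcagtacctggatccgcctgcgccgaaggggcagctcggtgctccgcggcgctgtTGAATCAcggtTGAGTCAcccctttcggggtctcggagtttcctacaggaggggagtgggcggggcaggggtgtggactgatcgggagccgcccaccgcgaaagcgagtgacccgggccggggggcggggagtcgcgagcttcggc
Procr, chr2:155750967-155751216, plus strand: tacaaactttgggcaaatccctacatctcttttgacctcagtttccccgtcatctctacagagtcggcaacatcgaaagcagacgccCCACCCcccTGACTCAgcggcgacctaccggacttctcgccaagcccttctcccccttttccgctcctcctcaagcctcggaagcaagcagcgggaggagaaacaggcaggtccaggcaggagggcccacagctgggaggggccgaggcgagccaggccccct
Plaur, chr7:24462233-24462482, plus strand: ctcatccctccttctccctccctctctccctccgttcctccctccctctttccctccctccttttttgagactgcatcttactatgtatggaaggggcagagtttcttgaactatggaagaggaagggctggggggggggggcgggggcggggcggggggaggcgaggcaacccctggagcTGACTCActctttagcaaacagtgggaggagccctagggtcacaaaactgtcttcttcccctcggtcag
Tfpi, chr2:84476760-84477009, minus strand: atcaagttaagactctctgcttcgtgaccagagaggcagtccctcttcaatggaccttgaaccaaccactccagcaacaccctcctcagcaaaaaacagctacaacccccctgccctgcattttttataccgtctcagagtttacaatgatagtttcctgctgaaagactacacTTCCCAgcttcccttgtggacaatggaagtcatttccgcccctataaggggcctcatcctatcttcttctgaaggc
TGANTCA lay in the F3, Procr and Plaur windows. In the F3 window a match spelled TGAATCA began 146 bases before the start, and a second spelled TGAGTCA began 135 bases before it. The spelling was TGACTCA in the other windows, beginning 154 bases before the start of Procr and 69 bases before that of Plaur. Of 32851 RefSeq promoter windows of this length, 6.75% held this motif. The KLF-like motif began 248 bases before F3 and 163 bases before Procr, and 28.1% of all windows held it. TGGGAA, held by 21.6% of windows, matched in the Tfpi window, on the other strand as TTCCCA, beginning 76 bases before the start. A second Tfpi window, chr2:84474175-84474424, held none of the 4 motifs. GGGNNTTCC, held by 4.98% of all windows, was in none of these windows. A match of letters is a description and not a binding site.

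Of the initiating pair, F3 was higher in NICeCA libraries on average but did not pass the test, and its inhibitor Tfpi differed by less than the spread between replicates. F3 (chr3:121723537-121735052, 6 exons) had 5.50, 10.5 and 8.24 RPKM in Ctrl replicates 1 to 3, and 10.1, 12.1 and 18.9 RPKM in the NICeCA replicates. The groups overlapped, because Ctrl replicate 2 exceeded NICeCA replicate 1. The means were 8.08 ± 2.51 and 13.7 ± 4.60 RPKM (SD, n = 3 each), 1.69-fold apart, with a log2 fold change of 0.69 (standard error, SE, 0.27 by limma, adjusted p = 0.112). Tfpi (chr2:84432860-84476775, minus strand, 10 exons) had 4.12, 4.53 and 4.52 RPKM in Ctrl and 4.30, 4.27 and 4.36 RPKM in NICeCA libraries. All 3 NICeCA values fell within the Ctrl range. Its log2 fold change was -0.02, with a 95% interval of -0.27 to 0.23 (limma adjusted p = 0.907). Tfpi had the lowest level of the 8 genes in both groups.

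Thbd, the thrombin receptor that opens the protein C pathway, had the largest fold change of the 8 genes. Thbd (chr2:148404471-148408188, minus strand, a gene of 1 exon) had 22.9, 14.8 and 29.5 RPKM in Ctrl libraries and 73.1, 68.5 and 88.5 RPKM in NICeCA libraries. The lowest NICeCA library was above the highest Ctrl library, and Ctrl replicate 2 was the lowest. The means of 22.4 ± 7.36 and 76.7 ± 10.5 RPKM (SD, n = 3 each) were 3.42-fold apart, with a log2 fold change of 1.77 (SE 0.24 by limma, adjusted p = 0.0111). Procr (chr2:155751217-155755478, 4 exons), the receptor that presents protein C to this complex, had 11.3, 9.92 and 13 RPKM in Ctrl and 16.0, 19.5 and 23.3 RPKM in NICeCA libraries. Again no Ctrl library reached the NICeCA range. It rose 1.72-fold, from 11.4 ± 1.54 to 19.6 ± 3.63 RPKM (SD, n = 3 each), with a log2 fold change of 0.72 (SE 0.16 by limma, adjusted p = 0.0356). Relative to the endothelial marker mean of each library, the log2 fold change of Procr was 0.0317 (limma adjusted p = 0.959) and that of Thbd 1.08 (0.16), where the median over all genes was -0.74. Leaving out any 1 library but Ctrl replicate 3 ended the Procr call (limma adjusted p up to 0.14). The Thbd call was lost without NICeCA replicate 1 or 2, at limma adjusted p = 0.0512 and 0.0504.

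Within each library Thbd was also set against its partner Procr and against F3. The ratio of Procr to Thbd in RPKM was 0.493, 0.668 and 0.440 in Ctrl and 0.219, 0.285 and 0.263 in NICeCA libraries, lower in every NICeCA library (exact permutation test, two-sided p = 0.1, the smallest that 3 against 3 libraries allow). The ratio of Thbd to F3 was 4.16, 1.41 and 3.58 in Ctrl and 7.23, 5.68 and 4.69 in NICeCA libraries, higher in every NICeCA library (exact permutation test, two-sided p = 0.1). Against Cdh5, the endothelial cadherin on whose promoter the Cre rests, Thbd stood at 0.480 ± 0.202 in Ctrl and 1.01 ± 0.198 in NICeCA libraries, with no overlap. Procr over Cdh5 was 0.253 ± 0.101 and 0.253 ± 0.0154 (SD, n = 3 each; exact permutation test, two-sided p = 1). Cdh5 itself was 82.4, 30.9 and 43.3 RPKM in Ctrl and 59.2, 78.6 and 96.5 RPKM in NICeCA libraries, and did not pass the test (limma adjusted p = 0.201).

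Vwf, the platelet tether of endothelial storage granules, rose 2.24-fold in NICeCA libraries. Vwf (chr6:125552948-125686679, 52 exons) had 13, 6.31 and 13.5 RPKM in Ctrl and 22.3, 28.3 and 22.9 RPKM in NICeCA libraries. The 3 NICeCA libraries lay above the 3 Ctrl libraries, and Ctrl replicate 2 was below the other Ctrl libraries. The means were 10.9 ± 4.01 and 24.5 ± 3.29 RPKM (SD, n = 3 each), with a log2 fold change of 1.15 (SE 0.26 by limma, adjusted p = 0.0356). Relative to the endothelial marker mean the log2 fold change of Vwf was 0.46 (limma adjusted p = 0.462). The Vwf call was lost when any 1 NICeCA library was left out (limma adjusted p = 0.118, 0.142 and 0.0505). Relative to Pecam1 in the same library, Vwf stood at 0.0965, 0.133 and 0.163 in Ctrl and 0.178, 0.184 and 0.162 in NICeCA libraries, so that the groups overlapped (exact permutation test, two-sided p = 0.2).

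Vwf is also a product of megakaryocytes, and the chemokine genes Pf4 and Ppbp of platelets rose with it, whereas other platelet markers did not pass the test or were under the filter. Of 12 platelet and megakaryocyte markers 4 passed the filter, 2 were called higher, Ppbp and Pf4, and 0 lower. Pf4 lay at 102 to 172 RPKM in Ctrl and 889 to 1126 RPKM in NICeCA libraries, and the summed list, most of which is Pf4, at 118 to 200 and at 1179 to 1310 RPKM. Itga2b, a platelet integrin gene, had 2.03, 0.957 and 1.40 RPKM in Ctrl and 2.58, 1.42 and 1.80 RPKM in NICeCA libraries and did not pass the test (limma adjusted p = 0.416). Gp1bb had a log2 fold change of -0.26 (limma adjusted p = 0.499), the untested Gp5 had means of 0.746 RPKM in Ctrl and 0.336 RPKM in NICeCA libraries, and Gp6 was below 0.1 RPKM in every library. The part of platelet RNA in the Vwf values was not tested.

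Of the plasminogen activation genes, Plaur rose, Plau was higher without passing the test, and Plat was not distinguishable between the groups. Plaur (chr7:24462500-24475873, 7 exons) had 126, 84.5 and 142 RPKM in Ctrl and 249.9, 218 and 225 RPKM in NICeCA libraries. No library of one group reached the other group, and Plaur had the highest level of the 8 genes in all 6 libraries. It rose 1.97-fold, from 117 ± 29.6 to 231 ± 16.7 RPKM (SD, n = 3 each), with a log2 fold change of 1.00 (SE 0.20 by limma, adjusted p = 0.0281). Its log2 fold change was 0.62 with quantile normalization (limma adjusted p = 0.0723) and 0.31 relative to the endothelial marker mean (0.617). Without NICeCA replicate 1 or 2 the call was lost (limma adjusted p = 0.113 and 0.108).

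Plau (chr14:20836662-20843388, 11 exons) had 17.7, 32.3 and 41.5 RPKM in Ctrl and 46.1, 43.1 and 53.3 RPKM in NICeCA libraries. The groups did not overlap, but the gap between Ctrl replicate 3 and NICeCA replicate 2 was small beside the spread of the Ctrl libraries. The means of 30.5 ± 12 and 47.5 ± 5.24 RPKM (SD, n = 3 each) gave a log2 fold change of 0.70 (SE 0.28 by limma, adjusted p = 0.118). Plat (chr8:22757744-22782848, 14 exons) had 5.41, 8.65 and 6.25 RPKM in Ctrl and 5.93, 7.24 and 11.3 RPKM in NICeCA libraries. The groups overlapped, and NICeCA replicate 3 was the highest. Its log2 fold change was 0.22, with a 95% interval of -0.33 to 0.77 (limma adjusted p = 0.541). The ratio of receptor to ligand, Plaur over Plau, was 7.09, 2.62 and 3.42 in Ctrl and 5.42, 5.07 and 4.21 in NICeCA libraries and did not separate the groups (exact permutation test, two-sided p = 0.6).

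**Figure D2:**
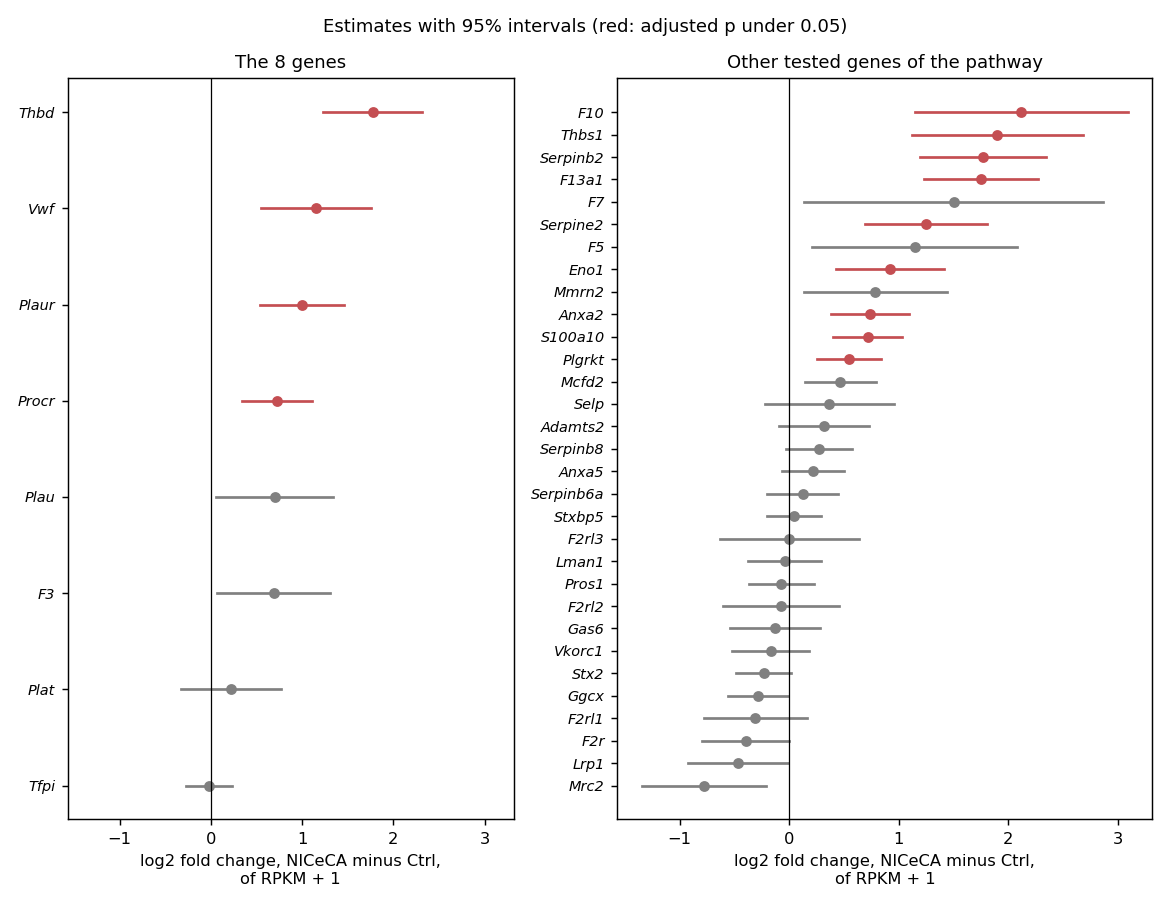
Log2 fold change (NICeCA minus Ctrl, of RPKM + 1) with 95% intervals for the 8 genes (left) and for other tested genes of the pathway (right), red where the limma adjusted p was under 0.05. Thbd at 1.77 leads the left panel, Tfpi at -0.02 ends it, and the 9 red genes of the right panel all lie above 0.

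Plaur, Plau, Thbd and F3 are also made by myeloid cells, whose markers differed in direction. Of 12 macrophage markers, all tested, 3 were higher (Cd68, Itgam and Fcgr1) and 0 lower, with 6 positive and 6 negative fold changes, and their summed level was 6654 to 9566 RPKM in Ctrl and 4592 to 8501 RPKM in NICeCA libraries. Of 13 neutrophil markers with a row 4 were under the filter, and of the 9 tested 8 were higher. Ngp, one of the 8, lay below 1 RPKM in every Ctrl library and passed the filter only through its NICeCA values. The summed level of the 13 was 120 to 279 RPKM in Ctrl and 644 to 1748 RPKM in NICeCA libraries. Of 7 tested markers of pericytes and smooth muscle 2 were higher, Rgs5 and Kcnj8, 0 were lower and 6 were positive. Their median log2 fold change was 0.77, at a summed level of 27.2 to 43.7 RPKM in Ctrl and 59.3 to 108 RPKM in NICeCA libraries. Most fibroblast markers went the other way, with 4 of 7 tested lower, 0 higher, 5 negative and 2 positive. The positive ones were Col1a1 (log2 fold change 0.10) and Col1a2 (0.55), and neither passed the test. The part of these cells in the values of the 8 genes was not tested.

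**Figure D3:**
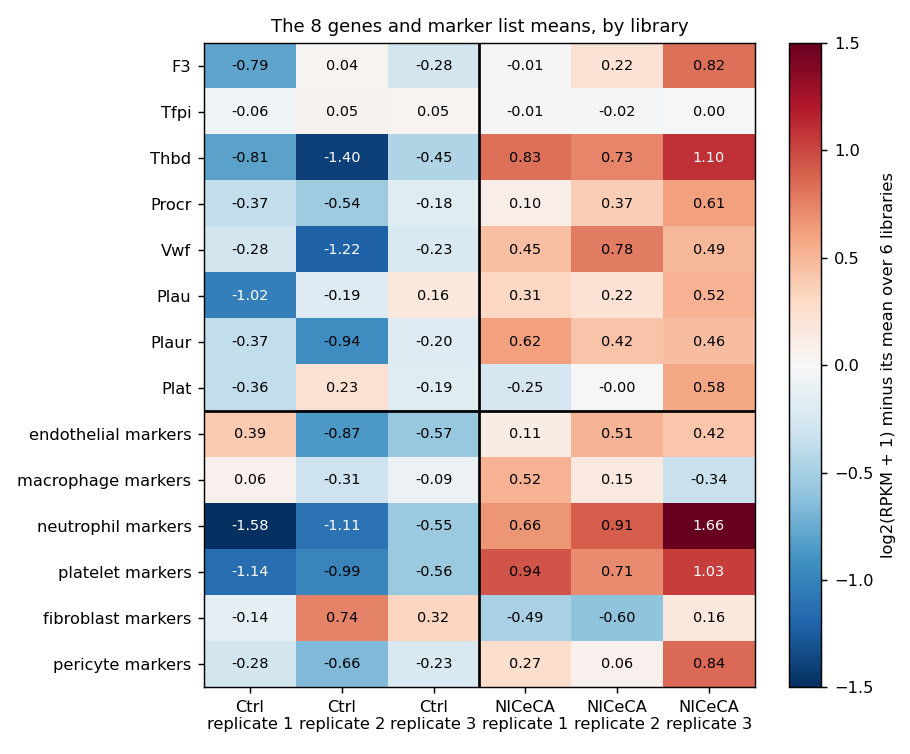
Log2(RPKM + 1) minus each row's mean over the 6 libraries, for the 8 genes and for 6 marker lists. Each list is the mean of its tested genes, and colors saturate at 1.5 in either direction. Thbd ran from -1.40 to 1.10, and the endothelial list stood at 0.39 in Ctrl replicate 1 and -0.87 in Ctrl replicate 2. The neutrophil, platelet and pericyte lists were below 0 in every Ctrl library and above 0 in every NICeCA library. The platelet row rests on 4 tested genes of 12. Of these, Ppbp and Pf4 were called higher, Itga2b did not pass and Gp1bb was negative. The neutrophil row includes Ngp, which passed the filter only through its NICeCA values.

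By mean level, Thbd and Plau stood in opposite order in the groups, as did Vwf and Procr. By library, Plau lay above Thbd in 2 of 3 Ctrl libraries. Procr lay above Vwf only in Ctrl replicate 2 of the 3 Ctrl libraries, and Vwf lay above Procr in 2 of 3 NICeCA libraries. In Ctrl libraries the mean levels ran Plaur, Plau, Thbd, Procr, Vwf, F3, Plat and Tfpi from high to low, and the ranges of Plau and Thbd, of Procr and Vwf, of Vwf and F3 and of F3 and Plat overlapped. In NICeCA libraries they ran Plaur, Thbd, Plau, Vwf, Procr, F3, Plat and Tfpi. There Thbd lay above Plau in all 3 libraries, whereas the ranges of Vwf and Procr, of Procr and F3 and of F3 and Plat overlapped. Plaur and Plau, Thbd and Procr, and Plat and Tfpi had separate ranges in the Ctrl libraries.

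The other genes of the pathway were read from a list of 57 genes, of which 56 are in the table and 32 were tested, 24 being under the filter. Of the 32, 9 were higher, 0 lower and 23 did not pass, with 21 positive fold changes and a median of 0.30, against the 5.88% called higher over all tested genes. At an unadjusted p under 0.05 the counts were 13 higher and 3 lower, against 1775 higher and 2602 lower of all 12320 tested genes. The plasminogen system supplied 7 of the 9, from 12 tested. The list of initiators and clotting factors supplied the other 2, from 8 tested. It also held Ggcx, Vkorc1, Lman1 and Mcfd2, which are not clotting factors themselves and did not pass. Of 3 tested genes listed as anticoagulants, 4 as thrombin receptors and 5 as VWF handling, 0 passed. The 3 were Pros1, Anxa5 and Gas6, and the 5 were Adamts2, Mmrn2, Selp, Stxbp5 and Stx2. These lists are loose groupings, and they were written with earlier results of these data known. The share called among them is a description and not a test of the pathway. Without NICeCA replicate 2 limma called 0 of the 32 higher. At an unadjusted p under 0.05 in that fit 10 of the 32 were higher, as were 1167 of all 12320 tested genes. Without NICeCA replicate 1 limma called F13a1 alone, and without Ctrl replicate 2 it called 3.

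Among clotting factors the circulating zymogen F10 and the fibrin crosslinking factor F13a1 rose. F10 had 12.2, 8.77 and 34.5 RPKM in Ctrl and 83.6, 64.9 and 66.7 RPKM in NICeCA libraries, a log2 fold change of 2.12 (SE 0.42 by limma, adjusted p = 0.0281). F13a1 had 43.8, 65.5 and 79.0 RPKM in Ctrl and 247, 197 and 186 RPKM in NICeCA libraries, 3.34-fold by the means (log2 fold change 1.75, limma adjusted p = 0.0109). In both genes all NICeCA libraries lay above all Ctrl libraries. F5, the cofactor that activated protein C cuts, did not pass at 4.27, 1.07 and 4.32 RPKM in Ctrl and 9.12, 10.2 and 4.56 RPKM in NICeCA libraries (limma adjusted p = 0.0903). F13a1 and F10 are expressed by macrophages, whose markers are given above.

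Around plasmin, the activator inhibitors Serpinb2 and Serpine2 rose, as did Thbs1, Anxa2, S100a10, Plgrkt and Eno1, whose proteins bind plasminogen or its activators. Serpinb2, an intracellular and secreted inhibitor of urokinase, had 6.13, 2.91 and 5.90 RPKM in Ctrl and 18.2, 22.7 and 15.6 RPKM in NICeCA libraries (log2 fold change 1.77, limma adjusted p = 0.0127). Serpine2, which inhibits thrombin and urokinase, had 1.84, 0.929 and 1.66 RPKM in Ctrl and 4.33, 3.56 and 7.11 RPKM in NICeCA libraries (1.25, limma adjusted p = 0.0262). Both were separated between the groups.

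Thbs1, a matrix protein that binds plasminogen and fibrinogen, had the highest mean level of the named pathway genes in both groups, though not the highest in Ctrl replicate 2, at 396, 232 and 626 RPKM in Ctrl and 1432, 1198 and 1762 RPKM in NICeCA libraries (log2 fold change 1.90, limma adjusted p = 0.0219). Anxa2 and S100a10, whose proteins form a cell surface complex that gathers Plat and plasminogen, rose from 311 ± 34.9 to 519 ± 62.9 RPKM and from 313 ± 17.7 to 517 ± 52.7 RPKM (SD, n = 3 each; limma adjusted p = 0.0312 and 0.0253). Plgrkt, a plasminogen receptor, went from 14.4 ± 1.72 to 21.4 ± 0.987 RPKM (limma adjusted p = 0.0362). Eno1, a glycolytic enzyme that also binds plasminogen at the surface, rose 1.86-fold (limma adjusted p = 0.0366), a value that is uncertain because near-identical copies of the gene can share its reads.

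The protein C cofactor Pros1 and the thrombin receptor F2r did not pass. Pros1, the cofactor of activated protein C, had means of 14.5 ± 1.69 and 13.7 ± 0.881 RPKM (SD, n = 3 each; limma adjusted p = 0.719). F2r, the main thrombin receptor, had 19.2, 26.1 and 24.3 RPKM in Ctrl and 15.8, 15.2 and 21.2 RPKM in NICeCA libraries (log2 fold change -0.40, limma adjusted p = 0.141). Tfpi2, a relative of Tfpi, was under the filter in both groups, at 0.645, 0.250 and 0.187 RPKM in Ctrl and 0.709, 0.845 and 0.926 RPKM in NICeCA libraries.

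For each gene the tested genes nearest in pattern were found by the root mean square difference of centred log2(RPKM + 1) over the 6 libraries. Thbd lay nearest to Il1b (0.137), Pgf (0.139) and Il1r2 (0.148), against a median of 0.966 over all tested genes. Vwf lay nearest to Nt5e (0.132), St8sia4 (0.147) and Fhl5 (0.151), Plaur to Snx18 (0.085), Cd14 (0.088) and Gadd45b (0.095), and Procr to Tgif1 (0.091), Tst (0.092) and Cd9 (0.095). F3 lay nearest to Ccl11 (0.133), Mmp2 (0.138) and Col1a2 (0.150), Plat to Vegfc (0.128), Msantd3 (0.139) and Loxl2 (0.148), and Plau to Hk2 (0.117), S100a11 (0.142) and Hsp90aa1 (0.151). Tfpi, which hardly varied, lay nearest to 5730455P16Rik (0.020), Utp3 (0.023) and Cep76 (0.024). Among the 8 genes themselves Vwf and Plaur were closest (0.202), then F3 and Plat (0.254), and Thbd and Tfpi were farthest apart (0.946). These distances are a description without a test, since all genes of a library share its depth and cell makeup.

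**Figure D4:**
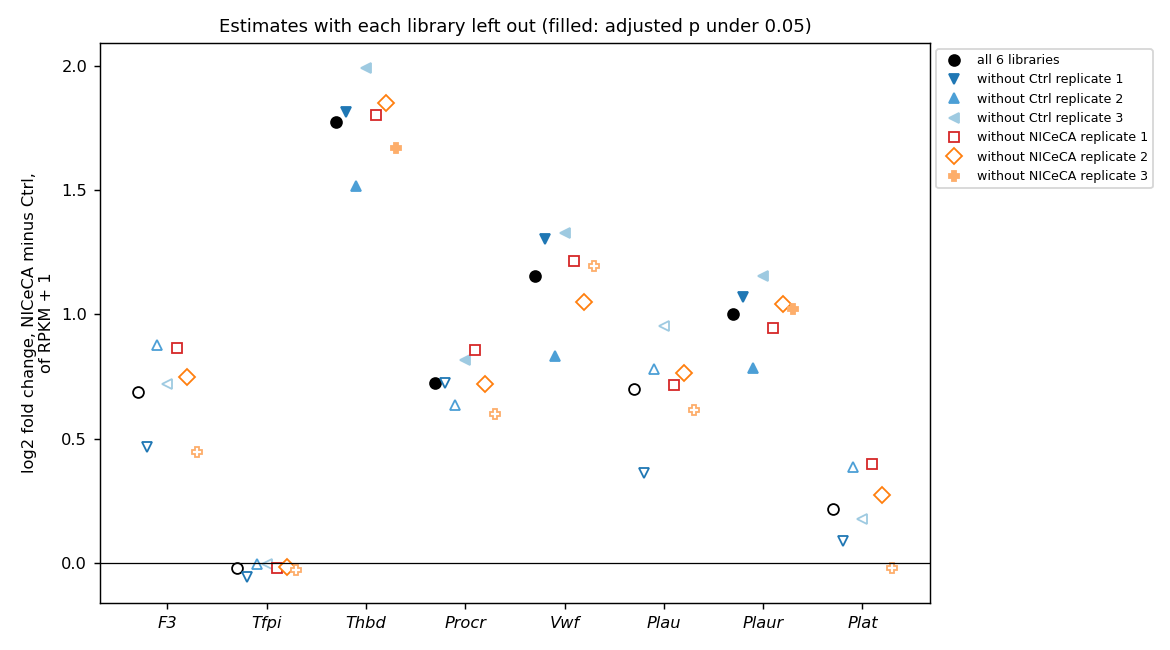
Log2 fold change (NICeCA minus Ctrl, of RPKM + 1) of the 8 genes with all 6 libraries (circle) and with each library left out (other symbols), filled where the limma adjusted p was under 0.05. Thbd stayed between 1.52 and 1.99 and Vwf between 0.83 and 1.33, whereas Plat ran from -0.02 to 0.40.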

How the data were processed

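The authors deposited 1 RPKM value per gene model and library, with no pooling of replicates. The submitters' processing notes name TopHat2 and mm9, but 99.3% of 23286 RefSeq rows matched by symbol lie where GRCm38 places them, and positions here are of that build. The sources used here name neither the counting tool nor its strand setting, and 0 columns belonged to other samples. RPKM times row length gave whole reads (within 0.05) for 100.0% of values under 1000 reads. Columns were matched to libraries by the label in the sample description, and to groups by the titles.

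From the deposited RPKM, log2(RPKM + 1) of RefSeq rows with a mean of at least 1 RPKM was compared with limma 3.58.1 (lmFit, eBayes with the mean-variance trend) in R 4.3.3, two-sided, with Benjamini-Hochberg adjustment and a threshold of 0.05. This scale understates the change of low genes. The procedure was also run on simulated data, with the outcome not reported here. Genes were drawn independently there, without shared shifts in cell makeup, so that run cannot speak to such shifts. Exact permutation tests used the 20 assignments of the 6 libraries. The 8 genes, the lists and the tests were chosen with earlier results of these data known. Named genes are the 8, the pathway genes called or partnering a member, and for each member the 3 nearest in pattern, with not every partner reported here. F7, Lrp1, Mrc2, Notch1, Hey1, the markers and the genes named to show what a list held were named after their values were seen. Alternatives were the replicate number as a block, trimmed mean and quantile scaling, no filter or at least 5 RPKM, a pseudocount of 0.1, no trend, an adjusted p under 0.1, limma voom on recovered reads, removal of the length trend (lowess, span 0.3), the mean of 22 endothelial markers as a covariate, and leaving out each library. Values relative to that marker mean were added after seeing the data. The methods mention pairs of mice, but the labels tie no libraries into pairs, and the deviations of same-numbered libraries did not go together. FANTOM3 rows, which cover the same reads as RefSeq rows, were left out of the tests.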

Additional observations from a re-analysis of the deposited data

Results flagged for a closer look

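Outside the RefSeq rows, a FANTOM3 transcript model on the strand opposite to the 3′ end of Vwf (chr6:125683871-125686424, 2554 bases, of which 285 lie in Vwf exons) had signal above that of the Ctrl libraries. It had 2.03, 1.11 and 2.22 RPKM in Ctrl and 3.68, 4.55 and 3.85 RPKM in NICeCA libraries, with means of 1.79 ± 0.592 and 4.03 ± 0.460 RPKM (SD, n = 3 each), and the groups did not overlap (exact permutation test, two-sided p = 0.1, the smallest possible). The reads behind it were 113 to 221 in Ctrl and 343 to 410 in NICeCA libraries. The strand setting of the counting is unknown, so these reads and those of Vwf cannot be told apart.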

How the results depend on the processing

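Of the 8 genes, Thbd kept its call in 13 of 17 alternatives, Plaur in 11, Vwf in 9 and Procr in 7, and F3, Plau, Plat and Tfpi passed in none. Tfpi was below a filter of at least 5 RPKM and has no value there. Where the calls were lost the cause was not tested. The deviations of libraries with the same replicate number did not go together (correlations 0.12, -0.34 and -0.18). Such correlations cannot show whether the mice were paired, because cell makeup also shapes the deviations. With the replicate block, 2 of the 8 genes were called higher, and Vwf (log2 fold change 1.15, limma adjusted p = 0.0586) and Procr (0.7250, 0.0531) were lost, with 5 other pathway genes higher and 327 genes higher and 209 lower overall. With quantile normalization 2 of the 8 were called, Vwf (1.13, 0.0538) and Plaur (0.62, 0.0723) were lost, 1 pathway gene (Lrp1) was lower, and 446 genes were higher and 325 lower. Without a filter, 1 of the 8 and 2 pathway genes were called, Vwf (1.15, 0.0712), Procr (0.72, 0.0675) and Plaur (1.00, 0.0578) were lost, and 260 genes were higher and 105 lower. With at least 5 RPKM 579 genes were lower, and at an adjusted p under 0.1, 1346 were higher and 1992 lower, with 1 pathway gene lower. With the length trend removed 255 genes were lower, and Procr was lost (0.65, 0.0558). Higher calls were 43.4% of all calls as deposited, 59.4% with trimmed mean scaling, 57.8% with quantile normalization, 33.8% with limma voom and 69.6% with the length trend removed. With the endothelial marker mean as a covariate limma called 0 of the 8, 0 pathway genes and 0 genes in either direction (unadjusted p under 0.05 in 6, 10, and 1230 higher and 1051 lower), at log2 fold changes of 0.77 for Vwf, 1.60 for Thbd, 0.63 for Procr and 0.85 for Plaur. Relative to the endothelial marker mean the median over all genes was -0.74, and 31 genes were higher and 300 lower. By limma 0 of the 8 and 0 pathway genes passed. At an unadjusted p under 0.05, 1 of the 8, 4 pathway genes and 93 of all genes were higher, and 0, 4 and 3257 were lower. F3 (-0.0066) and Plat (-0.48) turned negative, and Vwf was at 0.46, Thbd at 1.08, Procr at 0.0317 and Plaur at 0.31. Tfpi turned positive at 0.0312 with trimmed mean scaling, 0.11 with quantile normalization, 0.0389 with the covariate and 0.10 with the length trend removed. Plat was at -0.0185 without NICeCA replicate 3.

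Leaving out 1 library gave 26 to 913 genes higher and 1 to 832 lower, 0 to 4 of the 8 and 0 to 10 pathway genes higher. The lowest counts came without NICeCA replicate 2, where limma called 0 of the 8 and 0 pathway genes. At an unadjusted p under 0.05 in that fit 5 of the 8, 10 pathway genes and 1167 of all genes were higher. Without NICeCA replicate 1 limma called 0 of the 8 and 1 pathway gene, F13a1. At an unadjusted p under 0.05 there 5 of the 8 and 1257 of all genes were higher. Without NICeCA replicate 3, 2 of the 8 were called, and without Ctrl replicate 2, 3 pathway genes. The log2 fold changes ranged from 0.83 to 1.33 for Vwf, 1.52 to 1.99 for Thbd, 0.60 to 0.85 for Procr, 0.78 to 1.16 for Plaur, 0.45 to 0.88 for F3, 0.36 to 0.95 for Plau and -0.02 to 0.40 for Plat.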

Other observations

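A FANTOM3 model on the strand of Tfpi (chr2:84438012-84440204, 2193 bases, of which 65 lie in Tfpi exons) had 0.525, 0.893 and 0.456 RPKM in Ctrl and 0.162, 0.142 and 0.343 RPKM in NICeCA libraries, without overlap (exact permutation test, two-sided p = 0.1), on 11 to 78 reads a library. A longer model over the same stretch (chr2:84437979-84440989, of which 850 bases lie in Tfpi exons) had 0.706, 0.867 and 0.579 RPKM in Ctrl and 0.337, 0.310 and 0.660 RPKM in NICeCA libraries, with overlap (exact permutation test, two-sided p = 0.2). F7, whose protein is the ligand of tissue factor, had 9.38, 2.15 and 20.3 RPKM in Ctrl and 28.9, 24.3 and 20.02 RPKM in NICeCA libraries and did not pass the test (log2 fold change 1.51, limma adjusted p = 0.114). Mrc2, a receptor tied to the Plaur system, was lower in every NICeCA library without passing (-0.78, limma adjusted p = 0.0687).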
